A study of Equus caballus with 10 samples.

Results

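The genes described here encode the structural proteins of the basement membrane: the collagen IV chains COL4A1 and COL4A2, the laminin chains LAMA4, LAMA5, LAMB1 and LAMC1, the nidogens NID1 and NID2, and perlecan, the product of HSPG2. They were chosen by name, and all 9 were found among the 29196 genes of the deposited table and were among the 17992 genes tested. RNA was sequenced from primary equine tenocytes, the fibroblasts of tendon, from the superficial digital flexor tendon of 5 horses, after 14 days in 3D gels of bovine type I collagen. The cells of each horse, called lines 1 to 5 here, gave 1 library under PF-06650833 alone and 1 under IL-1β plus PF-06650833. PF-06650833 inhibits IRAK-4, a kinase downstream of the IL-1 receptor, and both groups received it daily at 100 nM, while IL-1β, at 17 ng/ml every few days, was given to the second group only. Libraries without the inhibitor were not analysed here, so each difference is that of IL-1β in cells that all had the inhibitor, and the collagen gel was also shared by both groups.

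A basement membrane is a thin sheet of matrix in which a network of laminin and a network of collagen IV are joined by nidogen and perlecan. Each laminin is made of an α, a β and a γ chain, and most laminins of connective tissue share the β chain of LAMB1 and the γ chain of LAMC1. In tendon, basement membranes lie around blood vessels and at the tendon surface, and fibroblasts are also known to express many of these genes in culture.

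The libraries held an estimated 26.7 M to 36.1 M reads on genes, and the lowest value of any of the 9 genes, LAMA4 in 1 library, rested on about 454 reads. Values are variance-stabilized log2 expression, on which 1 unit is a doubling for genes with as many reads as these. They are not corrected for gene length, so levels were compared between libraries and not between genes. Of 8 tendon fibroblast markers, 7 were tested and TNMD was at the value of 0 reads in all 10 libraries, and SCX, MKX and COMP passed the test as lower under IL-1β plus PF-06650833, where the summed normalised counts of the list were 232000 to 977000 against 867000 to 1420000. COL1A1, COL1A2 and THBS4 had lower means and did not pass. With the line as a term of the model COL1A1 and COL1A2, lower in 5 of 5 lines, did pass. Their log2 fold changes were -1.38 and -1.28 (adjusted p = 0.0147 and 0.0169 from limma). In that fit 5 of the 7 passed, all lower, beside 22.2% of all tested genes, and THBS4 did not (adjusted p = 0.0605 from limma). DCN went the other way, higher in 5 of 5 lines, and did not pass either (log2 fold change 1.01, adjusted p = 0.268 from limma). The 7 endothelial markers were near 0, with sums of 16.3 to 50.4 for PF-06650833 alone against 5.12 to 30.7, and limma called 0 of the 5 tested, with 2 at an unadjusted p below 0.05. Of 6 listed mural cell markers, RGS5, CSPG4 and DES passed as lower, and the sums were 3740 to 36800 for PF-06650833 alone against 4440 to 13100. MYH11, which alone reached 32520 normalised counts, and NOTCH3 had lower means and did not pass (adjusted p = 0.678 and 0.22 from limma). ABCC9 had a higher mean and did not pass (log2 fold change 1.02, adjusted p = 0.575 from limma). A second entry of that gene, ABCC9_1, was outside the list and passed as higher (2.67, adjusted p = 0.00218 from limma). Of 5 epithelial markers, 4 were tested, CDH1 and KRT19 passed as lower, the sums were 617 to 2580 against 45.4 to 444, and EPCAM was at 0. KRT8 and KRT18 were near 0, with at most 5.29 and 5.34 normalised counts, and did not pass. Of 6 macrophage and leukocyte markers, CD68 passed as higher, the sums were 52.8 to 1760 against 170 to 1910, and AIF1 was at 0. The upper ends of these sums came mostly from CD14, which was at 0 in 4 libraries and reached 1682 normalised counts. PTPRC, CD163 and CSF1R were too low to be tested, with at most 5.57. Of 6 Schwann cell markers none was called by limma (0 genes, and 0 at an unadjusted p below 0.05), with CDH19 at 0 and sums of 40.2 to 92.9 against 23.3 to 81.5. Among the tested markers 3 of 7 passed for tendon fibroblasts, 3 of 6 for mural cells and 2 of 4 for epithelial cells. For macrophages and leukocytes 1 of 2 passed, and all these counts stand beside 15.5% of all tested genes. The part of these markers in the results was not tested, and in bulk RNA fewer cells of a type and less RNA per cell cannot be told apart.

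Under IL-1β plus PF-06650833 the basement membrane genes did not move together. NID1 and LAMC1 rose 2.46-fold and 2.14-fold, LAMA5 fell 2.07-fold, and LAMB1 and LAMA4 had mean differences near 0. COL4A1, COL4A2, HSPG2 and NID2 had lower means, of which COL4A2, HSPG2 and NID2 passed the test when the line was a term of the model. In limma with Benjamini-Hochberg adjustment over all tested genes, 3 of the 9 genes had an adjusted p below 0.05, 2 higher and 1 lower, beside 15.5% of all tested genes. These 3 genes also reached an absolute log2 fold change of 1, which with that p is the definition of differential expression in the study and was met by 6.68% of all tested genes. With the line as a block, 6 of the 9 passed, 2 higher and 4 lower, beside 22.2% of all genes, and 4 were differentially expressed, beside 8.26%. Without the block these counts depended on single lines. Without line 5, limma called 0 of the 9 genes, with 3 at an unadjusted p below 0.05. It called 1 without line 1 or line 2, and 4 without line 3 or line 4. Over all 17992 tested genes the calls fell too, to 1307, 1268 and 1301 without lines 5, 1 and 2, against 2782 with all lines. They were 2833 and 2519 without lines 3 and 4. The blocked counts also depended on single lines. It called 2 genes without line 1 or line 5, 3 without line 2 or line 4, and 6 without line 3. The differentially expressed genes were 5 without line 3 and 2 without any other line. Over all tested genes the blocked fit called 2135, 2267, 3875, 3885 and 2494 without lines 1 to 5, against 3996 with all lines. Over the 9 genes the median log2 fold change was -0.71, and over all tested genes it was -0.01.

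**Figure D1:**
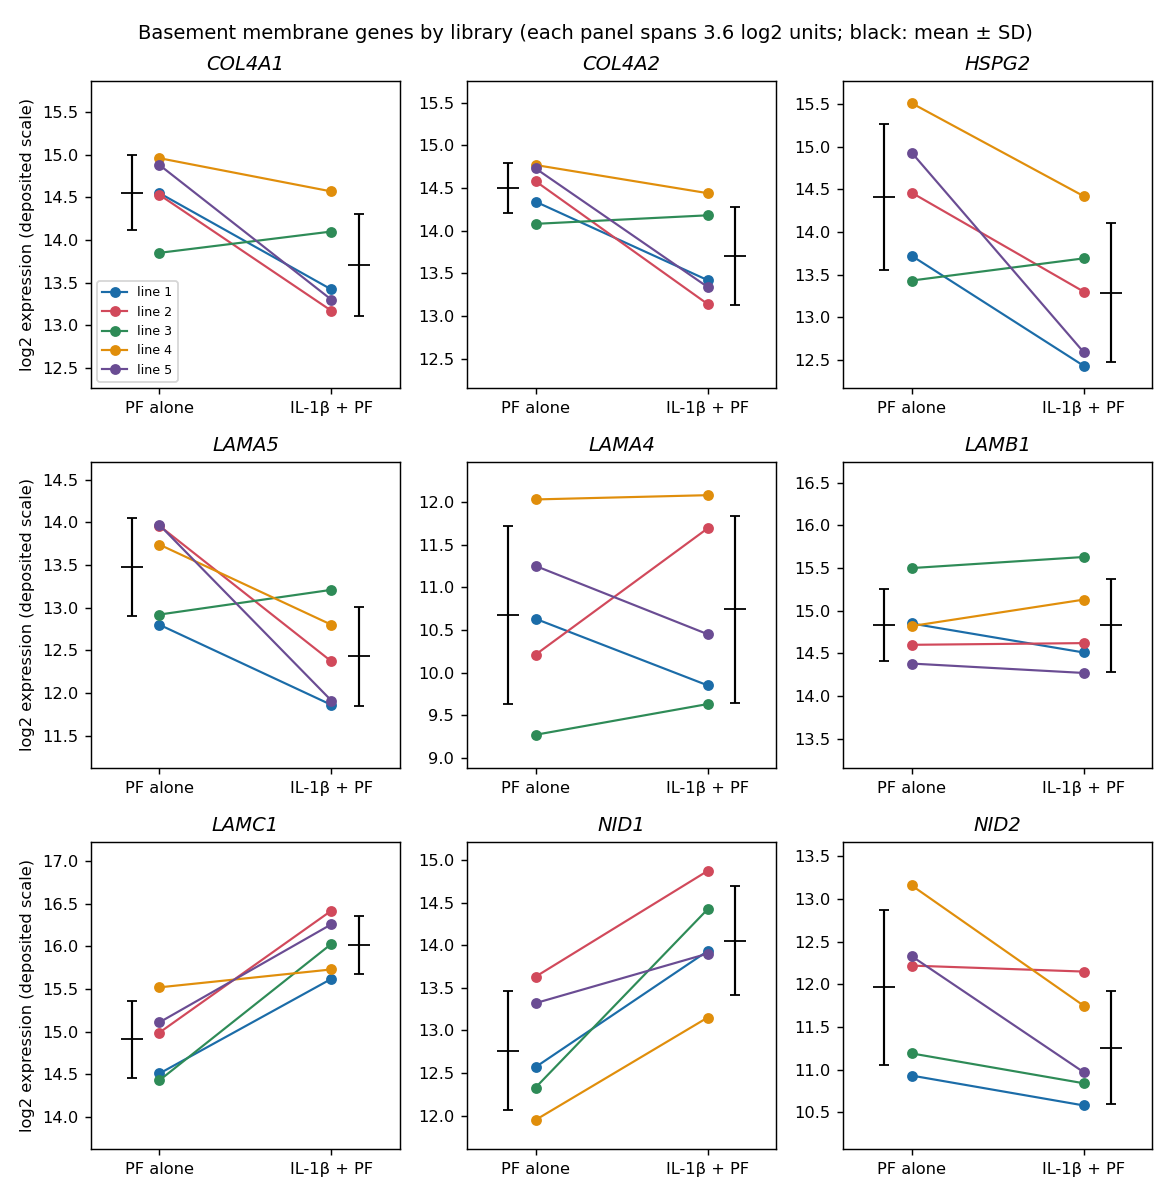
Log2 expression (deposited scale, vertical axis) of the 9 basement membrane genes under PF-06650833 alone (PF alone) and under IL-1β plus PF-06650833, 1 panel per gene, each spanning the same number of log2 units. Points joined by a line are the 2 libraries of 1 tenocyte line, and black marks are the mean ± SD of 5 libraries. All 5 lines rise for LAMC1 and NID1, while COL4A1, COL4A2, HSPG2 and LAMA5 go down in 4 lines and slightly up in line 3.

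COL4A1 and COL4A2 encode the chains of the collagen IV molecule found in nearly all basement membranes, and lie next to each other in the genome. The log2 expression of COL4A1 was 14.55, 14.53, 13.85, 14.96 and 14.88 in lines 1 to 5 under PF-06650833 alone, and 13.42, 13.17, 14.10, 14.57 and 13.30 under IL-1β plus PF-06650833. Lines 1, 2 and 5 were below every library of the other group, while lines 3 and 4 lay within its range. The means were 14.55 ± 0.44 and 13.71 ± 0.60 (SD, n = 5), and the log2 fold change was -0.84 (95% confidence interval -1.48 to -0.20), which did not pass the test (adjusted p = 0.077 from limma, and 0.0528 with the line as a block). COL4A2 had 14.34, 14.58, 14.08, 14.77 and 14.73 under PF-06650833 alone, and 13.42, 13.14, 14.18, 14.44 and 13.34 under IL-1β plus PF-06650833. The pattern over the lines was that of COL4A1. Its means were 14.50 ± 0.29 and 13.70 ± 0.57 (SD, n = 5), and the log2 fold change of -0.79 (95% confidence interval -1.35 to -0.23) had an adjusted p of 0.0581 from limma, and of 0.0445 with the line as a block.

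Whether these 2 genes passed depended on which line was included. COL4A1 and COL4A2 were higher by 0.25 and 0.10 under IL-1β plus PF-06650833 in line 3, and lower in the other 4 lines. Without line 3 the log2 fold changes were -1.11 and -1.02, with adjusted p-values of 0.0319 and 0.0313 from limma. They also passed without line 4 (-0.95 and -0.91, adjusted p = 0.0395 and 0.0326 from limma). Without line 5, where the change of COL4A1 was largest, they were -0.66 and -0.65, with adjusted p-values of 0.285 and 0.231 from limma.

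HSPG2 encodes perlecan, a large proteoglycan with heparan sulfate chains that binds laminin, collagen IV and growth factors. Its log2 expression was 13.72, 14.46, 13.43, 15.51 and 14.93 in lines 1 to 5 under PF-06650833 alone, and 12.43, 13.30, 13.69, 14.42 and 12.59 under IL-1β plus PF-06650833. The groups overlapped because the lines differed by about 2 units within a group, and each line except line 3 was lower by more than 1 unit. The mean went from 14.41 ± 0.85 to 13.29 ± 0.82 (SD, n = 5), and the log2 fold change was -1.12 (95% confidence interval -2.12 to -0.12, adjusted p = 0.123 from limma). The block by line narrowed the interval to -1.84 to -0.40 and the gene was differentially expressed (adjusted p = 0.0367 from limma). That call was kept without line 3 (-1.47, adjusted p = 0.00559 from limma) and was lost without any other line, with adjusted p-values from 0.0671 to 0.118.

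LAMA5 and LAMA4 encode laminin α chains that assemble with the same β and γ chains, so that which of them is made decides which laminin is formed. LAMA5 was at 12.80, 13.96, 12.92, 13.74 and 13.97 in lines 1 to 5 under PF-06650833 alone, and at 11.86, 12.37, 13.21, 12.80 and 11.91 under IL-1β plus PF-06650833. It was lower in 4 lines, with the lowest change of -2.07 in line 5, and higher by 0.29 in line 3, and the groups overlapped. The mean fell from 13.48 ± 0.57 to 12.43 ± 0.58 (SD, n = 5), and the log2 fold change was -1.05 (95% confidence interval -1.74 to -0.35, adjusted p = 0.0457 from limma). This was close to the threshold. The call was kept in 5 of 15 fits with 1 library or 1 line left out, those without the PF-06650833 alone libraries of line 1 or 3, the IL-1β plus PF-06650833 libraries of line 3 or 4, or line 3 altogether, and the adjusted p-values of all 15 ranged from 0.0152 to 0.205. The blocked fit called LAMA5 (adjusted p = 0.0394 from limma), but of its 5 repeats without a line only that without line 3 did, and the others gave up to 0.127.

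LAMA4, the α chain typical of vessel walls, muscle and other mesenchymal tissue, differed more between lines than between groups. It was at 10.63, 10.21, 9.27, 12.03 and 11.25 in lines 1 to 5 under PF-06650833 alone, and at 9.85, 11.69, 9.63, 12.08 and 10.45 under IL-1β plus PF-06650833. Line 4 was the highest and line 3 the lowest of the lines in PF-06650833 alone and in IL-1β plus PF-06650833. The change was 1.48 in line 2 and about -0.80 in lines 1 and 5, and the mean difference was 0.06 (95% confidence interval -1.21 to 1.33, adjusted p = 0.958 from limma). A change of 1 unit in either direction thus lies within the interval. The blocked fit gave an interval of -0.66 to 0.78.

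LAMB1, the β chain that LAMA4 and LAMA5 share, had the smallest mean difference of the 9 genes. It was at 14.85, 14.60, 15.50, 14.82 and 14.38 in lines 1 to 5 under PF-06650833 alone, and at 14.51, 14.62, 15.63, 15.13 and 14.27 under IL-1β plus PF-06650833. Line 3 was the highest and line 5 the lowest in each group, and the change within a line lay between -0.34 and 0.31. The log2 fold change of 0.00 had a 95% confidence interval of -0.61 to 0.62, and of -0.29 to 0.29 with the line as a block (adjusted p = 0.996 and 0.989 from limma).

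LAMC1 encodes the γ chain that carries the nidogen binding site of laminin. It was at 14.51, 14.99, 14.43, 15.52 and 15.11 in lines 1 to 5 under PF-06650833 alone, and at 15.62, 16.42, 16.03, 15.73 and 16.26 under IL-1β plus PF-06650833. Every library under IL-1β plus PF-06650833 was above every library under PF-06650833 alone, and LAMC1 was the only one of the 9 genes whose groups did not overlap, beside 12.7% of all tested genes. The mean rose from 14.91 ± 0.45 to 16.01 ± 0.34 (SD, n = 5), and the log2 fold change was 1.10 (95% confidence interval 0.56 to 1.63, adjusted p = 0.0122 from limma). Line 4, the highest under PF-06650833 alone, rose least, by 0.20, and line 3 rose most, by 1.60. The adjusted p stayed below 0.05 without any single library, but not without line 2 (adjusted p = 0.0645 from limma) or line 5 (0.0529). With the line as a block, the 5 fits without a line gave adjusted p-values of 0.00165 to 0.0443. In some fits the log2 fold change fell below 1, so that LAMC1 was not differentially expressed. Examples are those without the PF-06650833 alone library of line 3 (0.98) or the IL-1β plus PF-06650833 library of line 2 (0.99).

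NID1 and NID2 encode the nidogens, which link laminin to collagen IV and can stand in for each other in many tissues. NID1 was at 12.57, 13.63, 12.33, 11.95 and 13.32 in lines 1 to 5 under PF-06650833 alone, and at 13.93, 14.87, 14.42, 13.15 and 13.90 under IL-1β plus PF-06650833. It rose in all 5 lines, by 0.58 in line 5 to 2.09 in line 3, and the groups overlapped because line 4 was low in each. The mean rose from 12.76 ± 0.70 to 14.06 ± 0.64 (SD, n = 5), and the log2 fold change was 1.30 (95% confidence interval 0.49 to 2.10, adjusted p = 0.0351 from limma). In the blocked fit the standard error went from 0.37 to 0.19 and the adjusted p was 0.00339. Leaving out a line with the block gave adjusted p-values of 0.0026 to 0.0213, whereas without the block NID1 passed in 5 of 15 fits with 1 library or 1 line left out, those without the PF-06650833 alone library of line 2 or 5, the IL-1β plus PF-06650833 library of line 4, or line 2 or 4 altogether.

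NID2 was at 10.93, 12.22, 11.19, 13.16 and 12.33 in lines 1 to 5 under PF-06650833 alone, and at 10.58, 12.15, 10.84, 11.75 and 10.97 under IL-1β plus PF-06650833. It was lower in all 5 lines, by more than 1 unit in lines 4 and 5, and with changes of -0.07 to -0.36 in the others. The mean went from 11.97 ± 0.91 to 11.26 ± 0.66 (SD, n = 5), and the log2 fold change was -0.71 (95% confidence interval -1.65 to 0.24, adjusted p = 0.305 from limma). In the blocked fit it just passed (adjusted p = 0.0499 from limma), and in the 5 fits without a line it passed only without line 2 (0.0481), with values up to 0.139. NID1, NID2 and LAMC1 were the 3 of 9 genes with 1 direction in all 5 lines, beside 32.7% of all tested genes.

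**Figure D2:**
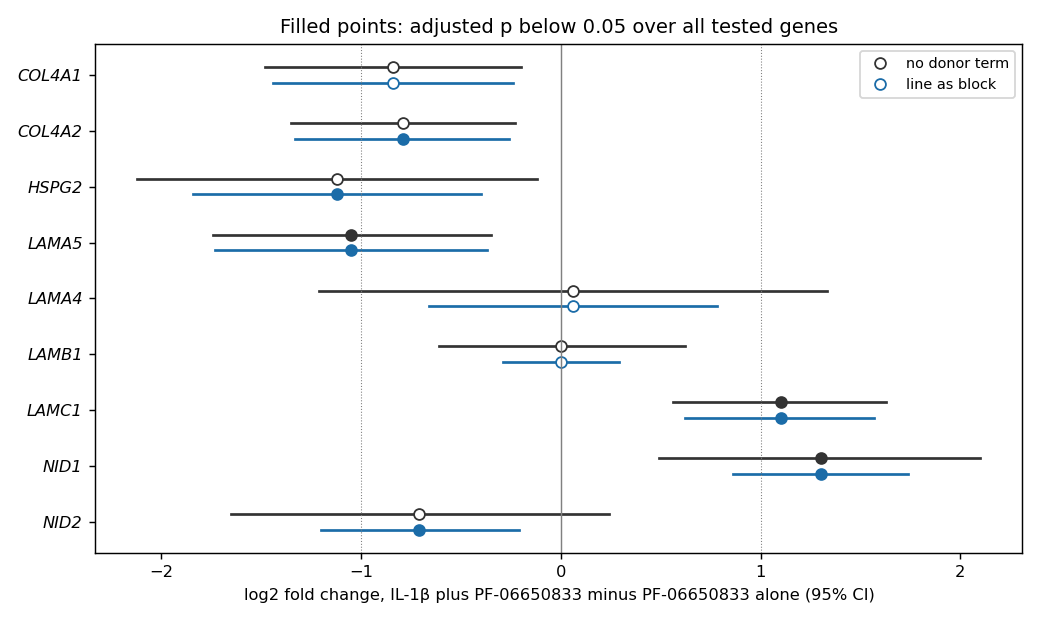
Log2 fold change of the 9 genes (IL-1β plus PF-06650833 minus PF-06650833 alone, horizontal axis) with 95% confidence intervals from limma, without a donor term (dark) and with the line as a block (blue). Filled points have an adjusted p below 0.05 over all tested genes, and dotted lines mark a log2 fold change of 1 in either direction. LAMA5, LAMC1 and NID1 are filled in both fits, and COL4A2, HSPG2 and NID2 with the block only.

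Line 3 was set apart in a way that depended on the gene. In it COL4A1, COL4A2, HSPG2 and LAMA5 were higher by 0.10 to 0.29 under IL-1β plus PF-06650833, although they were lower in every other line, while NID2 was lower in line 3 too. At the same time LAMC1 and NID1 rose more in line 3 than in any other line, by 1.60 and 2.09. Over the 1420 genes that passed as lower among all tested genes, the median change was -0.55 in line 3 and -0.81 to -1.13 in the others, and over the 1362 that passed as higher it was 0.60 in line 3 and 0.74 to 0.95 in the others. Line 3 thus changed less over these genes, in each direction, and the values of LAMC1 and NID1 in it did not go with that. Under PF-06650833 alone, line 3 had the lowest values of the 5 for COL4A1, COL4A2 and HSPG2, and also for LAMC1 and LAMA4.

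**Figure D3:**
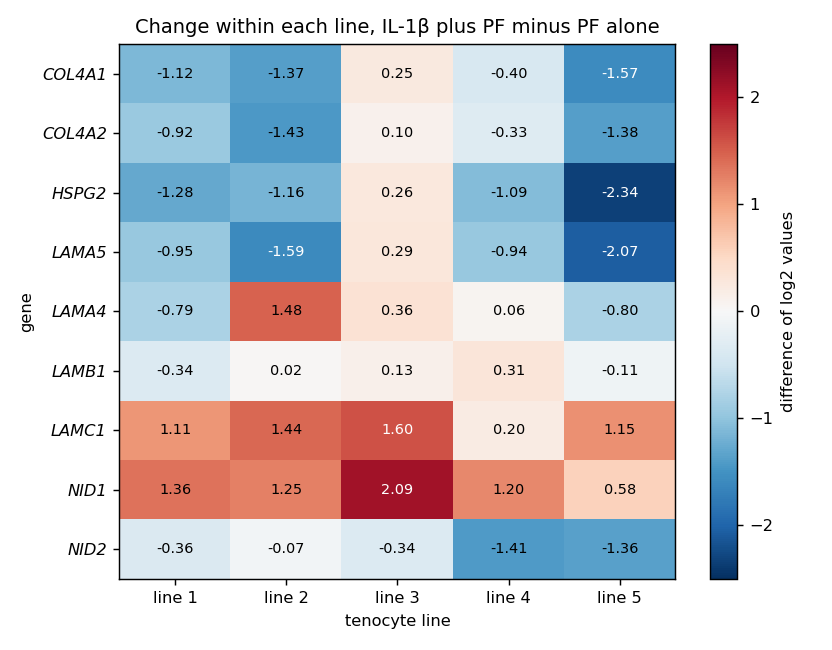
Difference of log2 values within each tenocyte line (columns) for the 9 genes (rows), IL-1β plus PF-06650833 minus PF-06650833 alone, with blue lower and red higher. In line 3, COL4A1, COL4A2, HSPG2 and LAMA5 are slightly above 0 and NID1 has the highest value of the map, 2.09, while line 5 has the lowest, -2.34 for HSPG2.

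Partner and related genes were compared within each library, where a scaling of the library has no effect, with an exact two-sided permutation test of 5 against 5 libraries and adjustment over the 4 pairs. COL4A1 and COL4A2 kept nearly the same ratio: COL4A1 minus COL4A2 was 0.06 ± 0.19 under PF-06650833 alone and 0.01 ± 0.08 (SD, n = 5) under IL-1β plus PF-06650833, a difference of -0.05 (exact p = 0.603, adjusted p = 0.603), with changes within a line of -0.20 to 0.15. NID1 minus NID2 was 0.79 ± 1.15 under PF-06650833 alone and 2.80 ± 0.85 (SD, n = 5) under IL-1β plus PF-06650833, so that the ratio of NID1 to NID2 was 4.02-fold higher, and it was higher in 5 of 5 lines, by 1.32 to 2.61. The exact p of 0.0159 became 0.0635 after adjustment over the 4 pairs, which does not pass.

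LAMA4 minus LAMA5 was higher by 1.11 under IL-1β plus PF-06650833, in 5 of 5 lines, but by 0.07 and 0.16 in lines 3 and 1 and by 3.06 in line 2 (exact p = 0.127, adjusted p = 0.169). The mean of LAMB1 minus LAMC1 changed by -1.10 (exact p = 0.0635, adjusted p = 0.127). It changed by -1.26 to -1.46 in 4 lines and by 0.11 in line 4. The smallest p that 5 libraries against 5 allow is 0.00794, and over the 5 pairs of libraries of a line it is 0.0625, which was reached for NID1 minus NID2 and LAMA4 minus LAMA5.

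**Figure D4:**
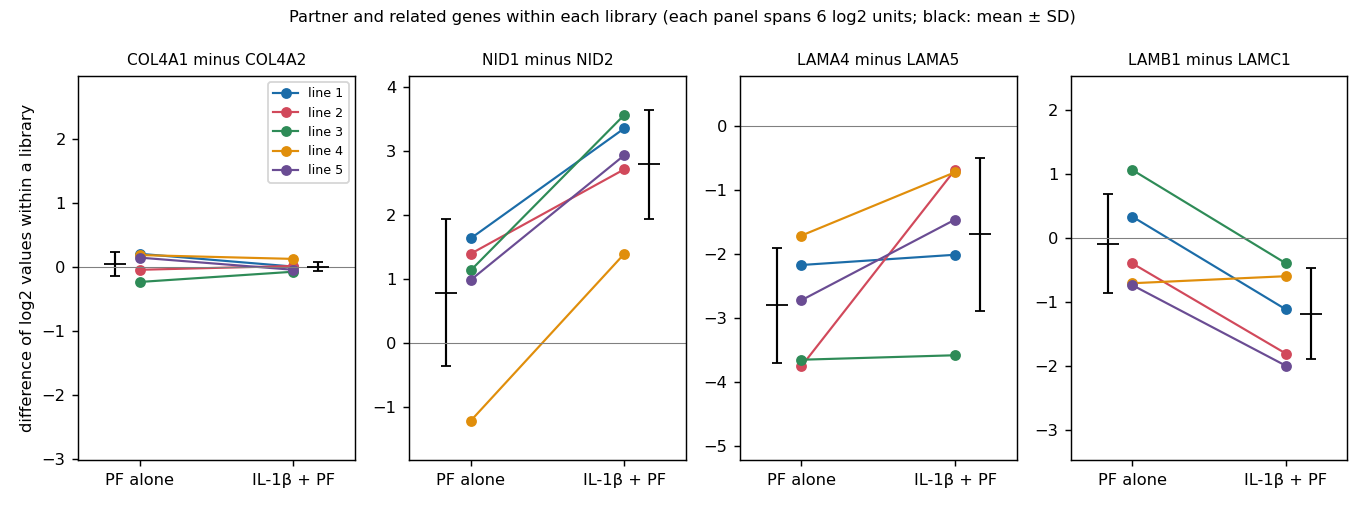
Difference of the log2 values of 2 genes within each library (vertical axis), under PF-06650833 alone (PF alone) and under IL-1β plus PF-06650833, for 4 pairs of genes and with panels of equal span. Points joined by a line are 1 tenocyte line, and black marks are the mean ± SD of 5 libraries. COL4A1 minus COL4A2 stays between -0.23 and 0.21, while NID1 minus NID2 goes up in all 5 lines.

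Across the 10 libraries, which share 5 lines, the gene most like COL4A1 of the 13864 others with a symbol was its neighbour COL4A2 (Pearson r = 0.982). COL4A1 was the second most like COL4A2, after SYDE2 (r = 0.988). The closest genes to the others were IGF1R for LAMA5 (r = 0.984), TRAM2 for HSPG2 (0.97), CDK13 for LAMB1 (0.976), SYVN1 for LAMC1 (0.964), TMEM51 for NID1 (0.956), CDK6 for LAMA4 (0.955) and PROSER2 for NID2 (0.946). Among the 9 genes, HSPG2 went with COL4A1 (r = 0.90) and LAMA5 (0.89), and after the group means were removed these were 0.85 and 0.82. LAMC1 and NID1 had r = 0.71, and 0.27 without the group means. The highest value of LAMB1 with any of the other 8 genes was 0.24, for COL4A2. These correlations describe the libraries and carry no test.

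In the gene order of another horse assembly COL4A2 lies beside COL4A1, and LAMB4, of the same family, beside LAMB1. LAMB4 had a log2 fold change of 0.09 that did not pass (adjusted p = 0.889 from limma).

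The other genes of basement membranes were taken from lists of names. Counts of each list are given beside the share of all tested genes, and no list was tested against that share. Of 8 other laminin chains, 1 passed the test, beside 15.5% of all tested genes. LAMA3, an α chain best known from epithelia, fell from 8.22 ± 0.55 to 5.73 ± 0.95 (SD, n = 5) and in every line, and its groups did not overlap (log2 fold change -2.49, standard error 0.44, adjusted p = 0.00399 from limma). Its median normalised counts were 222.7 and 25.28, and at the lower of these 1 unit is not a doubling. LAMB2, the β chain that can replace LAMB1, had a log2 fold change of -0.59 (adjusted p = 0.052 from limma, and 0.0439 with the line as a block). Of 3 tested chains of the 4 other collagen IV genes, 0 passed in limma and 1 had an unadjusted p below 0.05, COL4A4, which was lower in 5 of 5 lines and passed with the line as a block (log2 fold change -0.79, adjusted p = 0.0206 from limma). COL4A4 was near the value of 0 reads, with means of 4.67 and 3.88, and 2 libraries were at that value. Its median normalised counts were 3.86 and 1.27, so its change rests on few reads, where 1 unit is not a doubling.

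Among 14 tested genes of other basement membrane matrix, 1 passed as higher and 2 as lower, beside 15.5% of all tested genes. FBLN1, which encodes the laminin-binding glycoprotein fibulin-1, fell from 14.47 ± 0.56 to 11.25 ± 1.38 (SD, n = 5), with changes of -1.51 in line 3 and -5.02 in line 5 (log2 fold change -3.22, adjusted p = 0.00389 from limma). COL18A1, the collagen from which endostatin is cut, fell, with changes of -1.60 to -2.61 in 4 lines and of -0.03 in line 3 (log2 fold change -1.81, adjusted p = 0.0233 from limma). SMOC1, a calcium-binding protein of basement membranes, rose by 0.64 to 1.29 in all 5 lines (0.96, adjusted p = 0.0258 from limma). AGRN, the heparan sulfate proteoglycan agrin, and SPARC, which binds collagen IV, had log2 fold changes of -0.41 and -0.76 and did not pass (adjusted p = 0.57 and 0.126 from limma). In the blocked fit 6 of the 14 passed, 2 higher and 4 lower, beside 22.2% of all tested genes.

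Of 10 receptors for laminin and collagen IV, 2 passed as higher and 1 as lower, beside 15.5% of all tested genes. ITGB4, the integrin chain that forms a laminin receptor with ITGA6, rose from 9.29 ± 1.08 to 12.72 ± 0.53 (SD, n = 5), and DDR1, a receptor tyrosine kinase for collagens, from 9.96 ± 0.55 to 11.41 ± 0.47, each without overlap of the groups (log2 fold changes 3.43 and 1.45, adjusted p = 0.000974 and 0.00656 from limma). ITGA7, whose product forms a laminin receptor with ITGB1, fell, with changes of -0.58 in line 3 and -2.88 to -5.05 in the others (log2 fold change -3.32, adjusted p = 0.0217 from limma). Its median normalised counts were 649.9 and 31.36, and at the lower of these 1 unit is not a doubling. ITGB1, the common β chain of integrins, and DAG1, dystroglycan, had log2 fold changes of -0.10 and -0.48 (adjusted p = 0.813 and 0.0645 from limma). The blocked fit called 6 of the 10, 3 higher and 3 lower, beside 22.2% of all tested genes. DAG1 was among them (adjusted p = 0.0458 from limma).

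Of 16 genes for the folding and cross-linking of collagen IV and for heparan sulfate synthesis, 2 passed as higher and 1 as lower. This stands beside 15.5% of all tested genes. LOXL2, a lysyl oxidase that cross-links collagen IV, fell from 13.95 ± 0.10 to 12.27 ± 0.61 (SD, n = 5) without overlap (log2 fold change -1.68, adjusted p = 0.00143 from limma), with changes of -0.75 in line 3 and -1.67 to -2.29 in the others. PXDN, the peroxidase that forms the sulfilimine cross-links of collagen IV, rose by 0.49 to 1.19 in all 5 lines (0.76, adjusted p = 0.0244 from limma), and EXT1, a polymerase of heparan sulfate, by 0.40 to 1.07 (0.81, adjusted p = 0.00478 from limma). PXDN and LOXL2 thus went in opposite directions. The blocked fit called 5 of the 16, 2 higher and 3 lower, beside 22.2% of all tested genes.

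Of 11 tested enzymes that cut basement membrane components or their heparan sulfate, 2 passed, both as higher, beside 15.5% of all tested genes. MMP3, stromelysin, rose in all 5 lines, by 2.38 in line 3 to 9.50 in line 4 (log2 fold change 5.40, adjusted p = 0.00542 from limma). Its median normalised counts were 34.92 under PF-06650833 alone and 1134 under IL-1β plus PF-06650833. At the lower of these, 1 unit is not a doubling. MMP9, a gelatinase that cuts collagen IV, rose by 2.25 to 3.15 in 4 lines and changed by -0.18 in line 4 (2.09, adjusted p = 0.0182 from limma). The blocked fit called 5 of the 11, 3 higher and 2 lower, beside 22.2% of all tested genes. The median log2 fold changes of the lists were -0.37 for the other laminin chains, -0.34 for the other collagen IV chains, -0.35 for the other matrix, 0.16 for the receptors, 0.07 for the folding list and 0.42 for the cutting enzymes.

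**Figure D5:**
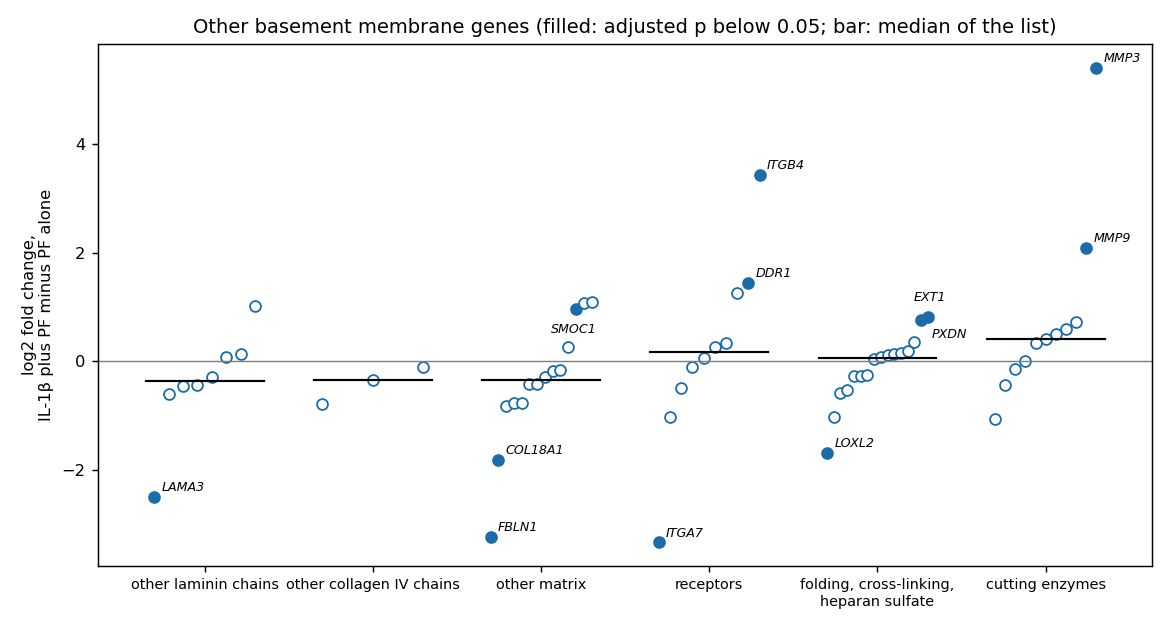
Log2 fold change (IL-1β plus PF-06650833 minus PF-06650833 alone, vertical axis) of the tested genes of 6 lists of other basement membrane genes, 1 point per gene. Filled and named points have an adjusted p below 0.05 in limma without a donor term, and bars are the medians of the lists. The filled points lie on either side of 0, from -3.32 for ITGA7 to 5.40 for MMP3.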

How the data were processed

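The authors assigned reads to the EquCab3.0 transcriptome with Salmon (version 1.8) with GC-bias correction and summarised them per gene with tximport. The table they deposited holds variance-stabilized log2 values, normalized across libraries, for 29196 genes in 10 columns. The transformation was recognised from the values: all libraries share the lowest value, 3.433, which is that of 0 reads. Normalized counts were obtained by inverting it, and the spacing of low values gave the value of 1 read and so the depth.

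The fit took the genes that exceeded that value in 5 or more of 10 libraries and used limma (version 3.58.1, under R version 4.3.3) with its trend option, two-sided, with Benjamini-Hochberg adjustment, without a donor term, since the study's methods name none. Beside it the replicate number, which stands for the tenocyte line in the labels, was used as a block. Deviations from the group means correlated at 0.367 to 0.506 between libraries of a line and at -0.107 on average between different lines. Pearson correlations between libraries were 0.966 to 0.991, and 0 pairs were identical. Pair differences were tested with exact permutations (scipy version 1.17.1). The fit was tested on simulated data. Alternatives were back-transformed values with a pseudocount of 1 or 0.5, quantile normalization, median centring, other filters and variance models, and leaving out libraries or lines. The genes, the lists and the rule for naming were chosen with earlier results of these data known: of each list, differentially expressed genes (at most 5) and a few chosen by name are given, and SMOC1, COL4A4, PXDN, EXT1 and LAMB4 were named after their values were seen. The cell type markers given by name were also picked after their values were seen. KCNJ8 and COL7A1 were not analysed here, and 1 neighbouring gene is not reported here. Gene order came from RefSeq genes of another assembly, so no positions are given. Promoter motifs were not analysed here.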

Additional observations from a re-analysis of the deposited data

Results flagged for a closer look

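In 54 groups of 5 libraries, 1 library lay far from the other 4 in 2 cases, where chance gives about 2.7. NID1 minus NID2 was -1.21 in line 4 with PF-06650833 alone, against 0.99 to 1.64 in the other lines, since line 4 had the lowest NID1 and the highest NID2 of that group. ITGA7 was at 8.23 in line 4 with IL-1β plus PF-06650833, against 5.07 to 5.92 in the others.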

How the results depend on the processing

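Over the 10 alternatives that keep all libraries, LAMC1 and NID1 passed in 10, LAMA5 in 7, COL4A2 in 2, HSPG2 in 2, NID2 in 1, and COL4A1, LAMA4 and LAMB1 in none. LAMA5 missed the threshold with every gene that is not constant and under the variance models without a trend or with a robust one, with adjusted p-values from limma up to 0.0602. The cause of these changes was not tested.

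With the replicate block, 6 of the 9 genes had an adjusted p below 0.05 against 3, and 5 on back-transformed log2(normalized count + 1) values with the replicate block, where 1809 of all tested genes were differentially expressed. The replicate block also gave 2 other laminin chains against 1, 1 other collagen IV chain against 0, 6 genes of other matrix against 3, 6 receptors against 3, 5 genes of the folding list against 3 and 5 cutting enzymes against 2. The share of all tested genes that passed was 22.2% against 15.5%. For the pair differences the block, as sign flips over the lines, could not pass the threshold, since the smallest p it allows is 0.0625, and its 4 adjusted p-values lay between 0.125 and 0.562.

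In the 15 fits with 1 library or 1 line left out, 1268 to 3268 genes had an adjusted p below 0.05 and 762 to 1422 were differentially expressed. The 5 fits with the block and 1 line left out were chosen after the data were seen and gave 2135 to 3885 and 1177 to 1677. The basement membrane genes that passed numbered 0 to 6, and those differentially expressed 0 to 5, over all 20 fits. Without line 5 and without the block, 0 of the 9 passed in limma, with 3 at an unadjusted p below 0.05, and 6 passed without the IL-1β plus PF-06650833 library of line 4. In these fits 1307 and 3268 of all tested genes passed. The sign changed for LAMA4, which ranged from -0.29 to 0.40 and was -0.01 without line 3, and for LAMB1, which ranged from -0.20 to 0.17 and was -0.03 without line 3 and -0.07 without line 4. Centring on the median moved the median log2 fold change of all genes from -0.01 to 0.02. Promoter motifs were not run.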
